A study of Mus musculus with 6 samples.

Results

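A set of 10 genes that act in G1, the phase in which a cell decides whether to copy its DNA, were followed in megakaryocyte-erythroid progenitors, precursors of erythrocytes and platelets. They are the D cyclins Ccnd1, Ccnd2 and Ccnd3, the kinases Cdk4 and Cdk6, the inhibitors Cdkn1b, Cdkn1c, Cdkn2c and Cdkn2d, and the retinoblastoma gene Rb1. They were chosen by name, and all 10 were found among the 55487 gene rows of the deposited table. The cells came from wild type C57BL/6 mice aged 8 weeks, with 3 control libraries and 3 libraries from mice that had gone without food for 6 h. The comparison addresses what a short fast does to cells that the labels name as these progenitors. The labels do not say whether a library is 1 mouse or a pool, so p-values measure only the spread between these libraries, which may be technical. Sex, time of day and how the progenitors were isolated are not given in the sources used here, and the labelled extraction protocol speaks of ground tissue rather than of isolated cells.

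D-type cyclins bind Cdk4 and Cdk6, and the active pair phosphorylates the retinoblastoma protein, which then lets go of E2F transcription factors so that genes for DNA synthesis can be read. The INK4 proteins, encoded here by Cdkn2c (p18) and Cdkn2d (p19), bind Cdk4 and Cdk6 directly. The CIP/KIP proteins, encoded by Cdkn1b (p27) and Cdkn1c (p57), act on cyclin-kinase pairs. In red cell precursors, division and maturation are closely coupled, cyclin D3 with Cdk6 is known for its part in setting how often these cells divide, and p27 accumulates as they leave the cycle.

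Control libraries held 22445970 to 30246110 gene counts, and fasted libraries 12797144 to 18225191. Counts also landed on 1738 odorant and vomeronasal receptor genes, which blood cells do not use, at a rate per kilobase of 9.05 to 14.8 (control) and 14.4 to 16.1 (fasted). Spread over all exons, this rate would make up 3.93% to 8.68% of control counts and 11.6% to 14.8% of fasted counts. Scaling and testing were therefore restricted to the 10834 genes with at least 5 times that background, and CPM here means counts per 1000000 counts of these genes after TMM scaling. On the first principal component, with 47.9% of the variance, control libraries 1, 2 and 3 stood at -54.7, -16.3 and -4.4. Fasted libraries 1, 2 and 3 stood at 26.6, 20.4 and 28.4. The groups did not overlap on it, and control library 1 stood apart at its low end. All 10 erythroid markers examined were above the limit, as were 4 of 7 megakaryocyte markers (Gp1bb, Vwf and Ppbp were not). All 12 granulocyte and monocyte markers were above it too. Their summed level was 3635, 12336 and 18802 CPM in control libraries 1, 2 and 3 and 4533, 3064 and 1810 CPM in fasted libraries 1, 2 and 3. The erythroid sum was 6941, 7223 and 4190 CPM in control and 5650, 6996 and 8603 CPM in fasted libraries 1, 2 and 3. It was the lower of these sums in control libraries 2 and 3 alone. The name of the cells is taken from the labels. The 5 T cell markers all lay below the limit.

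Both kinases, the D cyclins Ccnd2 and Ccnd3 and the inhibitor Cdkn1b had lower means in the fasted libraries, while Cdkn2d and Rb1 had higher ones. The fitted difference was -30.9% for Cdk6, -29.0% for Ccnd2, -22.0% for Ccnd3, -13.8% for Cdk4 and -13.7% for Cdkn1b. None of these differences passed the test across all genes. Among the 7 tested genes the groups did not overlap for the kinases alone. Of all tested genes, 27.3% had groups that did not overlap, 12.9% with the fasted libraries lower. Of the 10 genes, 7 were above the background limit and 0 of these 7 had an edgeR quasi-likelihood adjusted p under 0.05, where 0% of all 10834 tested genes were called (0 genes). At an unadjusted p under 0.05 there were 3 of the 7, all lower in fasted libraries, while 19.9% of all tested genes reached that level, 8.31% on the lower side. Across all genes 2151 had an unadjusted p under 0.05 in edgeR, limma-voom called 0 and DESeq2 called 503. DESeq2 called 0 of the 7, against an overall share of 4.64%. The median log2 fold change of the 7 was -0.21, beside 0.03 for all tested genes. In bulk RNA, fewer cells of a type and less RNA per cell cannot be told apart.

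**Figure D1:**
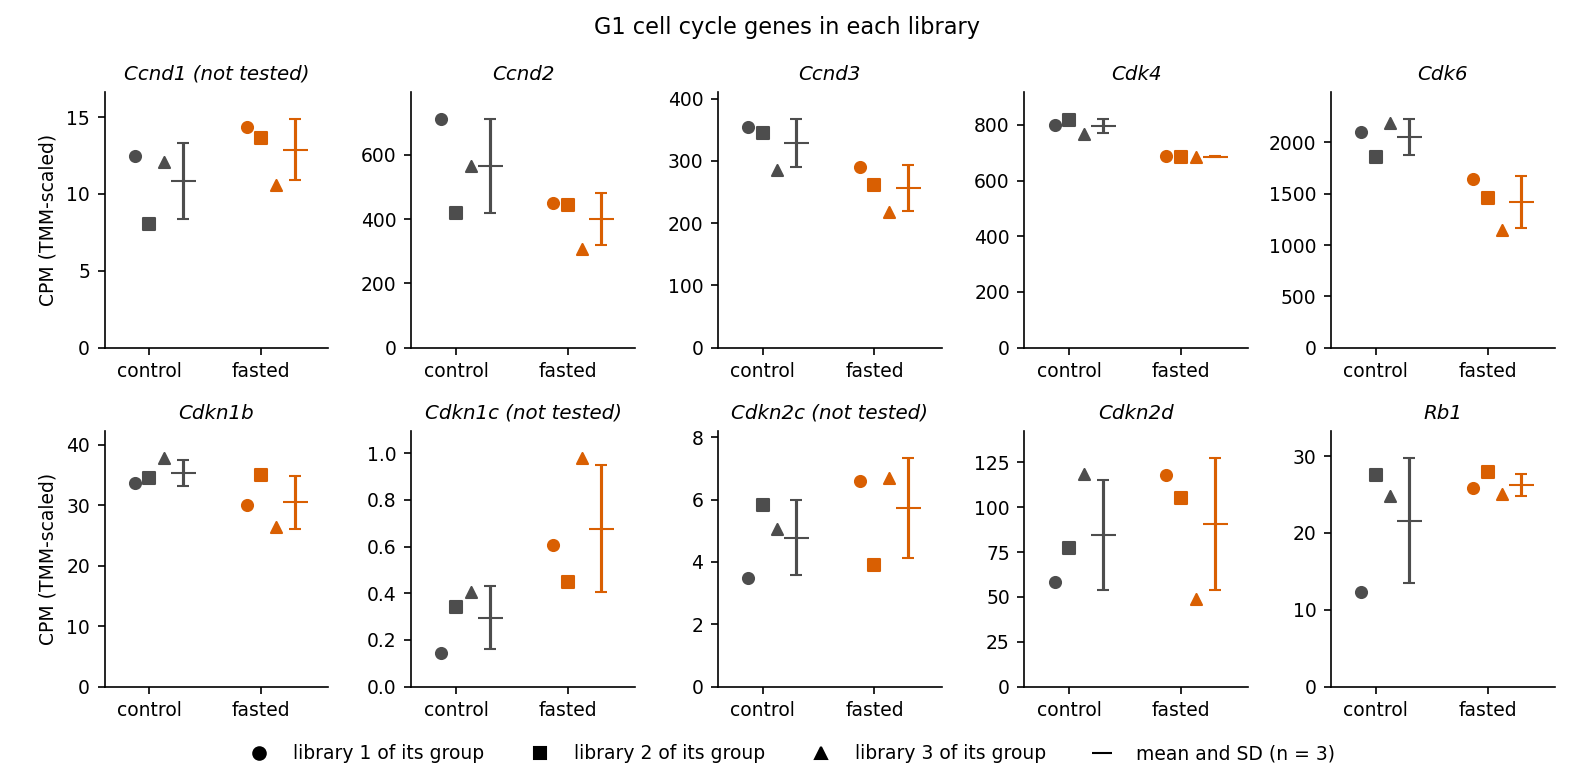
Expression of the 10 G1 genes in each library, in TMM-scaled CPM (vertical axes from 0, each gene on its own scale), for 3 control (grey) and 3 fasted (orange) libraries. Points are libraries, bars give the mean and SD of 3, and genes marked as not tested lay below 5 times the background. Cdk4 and Cdk6 are the tested genes whose groups do not overlap, with every fasted library under every control library. Of all tested genes, 27.3% had groups that did not overlap, 12.9% with the fasted libraries lower.

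Per kilobase of exon, the kinases were the most abundant of the 10 genes in control libraries, with Cdk4 at 245 ± 7.62 and Cdk6 at 147 ± 12.3 CPM per kilobase (SD, n = 3 each). Ccnd2 followed at 60.1 ± 15.4, Cdkn2d at 53.8 ± 19.5 and Ccnd3 at 37.4 ± 4.36 CPM per kilobase (SD, n = 3 each). Cdkn1b stood far lower at 7.76 ± 0.466, then Rb1 at 3.59 ± 1.35, Ccnd1 at 2.31 ± 0.523, Cdkn2c at 1.78 ± 0.446 and Cdkn1c at 0.145 ± 0.0669 CPM per kilobase (SD, n = 3 each). Neighbours in this order whose ranges of mean ± SD overlapped were Ccnd2 and Cdkn2d, Cdkn2d and Ccnd3, Rb1 and Ccnd1, and Ccnd1 and Cdkn2c. In fasted libraries the order was the same except that Cdkn2d, at 57.6 ± 23.3, stood above Ccnd2, at 42.6 ± 8.57 CPM per kilobase (SD, n = 3 each). Per kilobase, Ccnd2 and Ccnd3 thus stood far above Ccnd1, and Cdkn2d far above the other 3 inhibitors of the set. Cdkn1a, an inhibitor outside the set, had 41.8 ± 35.3 in control and 53.9 ± 33.8 CPM per kilobase in fasted libraries (SD, n = 3 each). The lengths merge all annotated exons, which understates a gene whose longer forms are not used.

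Cdk6 encodes the kinase that partners D cyclins in many blood cells (ENSMUSG00000040274.11, GRCm38 chromosome 5, 3341485 to 3531008, plus strand). It had 2105, 1858 and 2191 CPM in control libraries 1, 2 and 3 and 1645, 1460 and 1148 CPM in fasted libraries 1, 2 and 3. Every fasted library lay below every control library, and fasted library 3 was the lowest. The mean went from 2051 ± 173 to 1417 ± 251 CPM (SD, n = 3 each), and edgeR fitted -0.53 on the log2 scale with an SE of 0.16, an unadjusted p of 0.00789 and an adjusted p of 0.156. Leaving out each library in turn kept it between -0.65 and -0.40. When the 36508 genes kept by filterByExpr were tested with the factors of the genes above background, Cdk6 had the same log2 fold change of -0.53. It passed there, with an edgeR adjusted p of 0.0300. In that fit 14% of genes were called, 4857 of them higher and 260 lower in fasted libraries. Cdk6 did not pass with a limit of 10 times the background (-0.45, edgeR adjusted p 0.341). Nor did it pass with the background subtracted (-0.47, edgeR adjusted p 0.243). Fits over other wide sets of genes, in which it passed, are given below.

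Cdk4 encodes the sister kinase, used by most dividing cells (ENSMUSG00000006728.12, chromosome 10, 127063534 to 127067920, plus strand). Its levels were 798, 818 and 768 CPM in control libraries 1, 2 and 3 and 687, 684 and 685 CPM in fasted libraries 1, 2 and 3. The fasted libraries were nearly equal, and all were below the control libraries. The mean went from 795 ± 24.8 to 685 ± 1.61 CPM (SD, n = 3 each), and the fitted log2 fold change was -0.21, SE 0.11 (adjusted p 0.309, edgeR). Cdk4 and Cdk6 were thus 2 of the 7 tested genes whose groups did not overlap, while 27.3% of all tested genes had groups that did not overlap, 12.9% with the fasted libraries lower. Of the 3249 exonic bases of Cdk4, 641 are shared with Tspan31 on the other strand, and reads there cannot be assigned with certainty, since the strand setting of the counting is not given in the sources used here.

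RefSeq (GRCm38.p6) gives windows from 250 bases before to 50 after the start site for 6 of the 10 genes. The kinases and Cdkn1b are shown. The kinases were chosen as the tested genes whose groups did not overlap, and Cdkn1b as the inhibitor tied to leaving the cycle. These 3 genes lie on the plus strand, and each run is written on it, 5′ to 3′, and stops before the first exon base annotated in the window. The Cdk6 start site in RefSeq lies inside the span given above. Capitals mark CACGTG, the E-box letters that Myc and related factors can bind, and the GC box GGGCGG or its reverse complement CCGCCC.
Cdk4, chr10:127063285-127063533: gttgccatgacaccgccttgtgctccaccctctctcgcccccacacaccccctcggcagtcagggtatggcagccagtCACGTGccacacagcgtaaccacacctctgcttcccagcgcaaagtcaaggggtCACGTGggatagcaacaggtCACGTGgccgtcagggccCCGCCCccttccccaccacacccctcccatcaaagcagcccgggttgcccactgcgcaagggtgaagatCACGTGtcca
Cdk6, chr5:3343643-3343731: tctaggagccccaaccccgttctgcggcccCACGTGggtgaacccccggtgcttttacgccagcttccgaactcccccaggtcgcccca
Cdkn1b, chr6:134920151-134920400: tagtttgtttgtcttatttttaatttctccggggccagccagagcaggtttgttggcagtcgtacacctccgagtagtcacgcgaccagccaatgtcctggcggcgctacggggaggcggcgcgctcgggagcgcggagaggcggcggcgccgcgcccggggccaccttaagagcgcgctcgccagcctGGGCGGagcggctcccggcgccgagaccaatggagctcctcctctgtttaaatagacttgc

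The Cdk4 window holds CACGTG 4 times, all in the run shown, and 8 of 32851 windows of the same length hold it at least that often (0.0244%). That number of matches was taken from the Cdk4 window itself, so the share is a description and not a test. The Cdk6 run holds CACGTG once, 7.15% of all windows hold it at least once, and the Cdkn1b run does not hold these letters. Among the genes not shown, a window of the inhibitor Cdkn2c holds CACGTG after the start site. The windows of Ccnd3 and Cdkn2d do not hold it. GGGCGG on either strand is in 35.7% of all windows. The E2F letters TTTCCCGC, TTTGGCGC, TTTGCCGC and TTTCGCGC, searched on both strands, are in 2.27% of all windows and in none of the 8 windows of the 6 genes. The forkhead letters TGTTTAC, like all letters here searched on both strands, are in 3.65% of all windows and, among the 6 genes, in one Ccnd3 window. The GATA letters AGATAA and the STAT letters TTCNNNGAA were in none of the 8, against 11.2% and 8.30% of all windows. These are letter matches in short windows and were not tested for use in these cells.

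Myc, whose protein is known to bind such E-boxes, had 1040, 416 and 361 CPM in control libraries 1, 2 and 3 and 359, 277 and 386 CPM in fasted libraries 1, 2 and 3. The groups overlapped, control library 1 stood far above the rest, and edgeR gave -0.83 (log2, SE 0.42, adjusted p 0.328). Myc was singled out after its values were seen.

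Ccnd2 was the most abundant D cyclin (ENSMUSG00000000184.12, chromosome 6, 127125162 to 127152193, minus strand). It stood at 710, 420 and 565 CPM in control libraries 1, 2 and 3 and at 451, 444 and 308 CPM in fasted libraries 1, 2 and 3. The groups overlapped, because control library 2 lay below fasted libraries 1 and 2. The mean went from 565 ± 145 to 401 ± 80.6 CPM (SD, n = 3 each), or -0.49 (SE 0.21) as a fitted log2 fold change, adjusted p 0.245 in edgeR. Without control library 1 the log2 fold change was -0.30, and without control library 2 it was -0.69.

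Ccnd3 encodes the D cyclin best known for its part in red cell precursors (ENSMUSG00000034165.16, chromosome 17, 47505051 to 47599691, plus strand). Control libraries 1, 2 and 3 had 355, 345 and 285 CPM, and fasted libraries 1, 2 and 3 had 290, 261 and 218 CPM. Only control library 3 fell within the fasted range. The mean went from 328 ± 38.2 to 256 ± 36.5 CPM (SD, n = 3 each), which edgeR fitted as -0.36 on the log2 scale (SE 0.15, adjusted p 0.230). Bysl, on the other strand, shares 361 of its 8775 exonic bases.

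Ccnd1, the D cyclin widely used outside the blood (ENSMUSG00000070348.5, chromosome 7, 144929931 to 144939925, minus strand), drew 348, 189 and 239 counts from control libraries 1, 2 and 3, against 165, 214 and 141 from fasted libraries 1, 2 and 3. That was 8.16, 3.03 and 3.42 times the background of the same library in control and 2.43, 2.82 and 1.99 times in fasted libraries. It therefore lay below the limit for testing, with a mean of 3.33 times the background. Of its 4709 exonic bases, 1100 are shared with LTO1 on the other strand. Its sign differed with the scaling, at 0.24 (SE 0.30) with the factors of the genes above background and -0.27 (SE 0.29) with TMM over all 36508 genes, neither of which passed.

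Cdkn2d was the most abundant of the 4 inhibitors per kilobase (p19, ENSMUSG00000096472.2, chromosome 9, 21288410 to 21291407, minus strand). It had 58.3, 77.2 and 118 CPM in control libraries 1, 2 and 3 and 118, 105 and 49.0 CPM in fasted libraries 1, 2 and 3. Both groups spanned about the same range, with control library 1 and fasted library 3 low and control library 3 and fasted library 1 high. edgeR fitted 0.10 on the log2 scale (SE 0.37, adjusted p 0.898) and ranged from -0.13 to 0.42 when each library was left out in turn.

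Cdkn1b, the gene of p27 (ENSMUSG00000003031.14, chromosome 6, 134920401 to 134925513, plus strand), had 33.7, 34.5 and 37.7 CPM in control libraries 1, 2 and 3 and 30.05, 35.0 and 26.3 CPM in fasted libraries 1, 2 and 3. Fasted library 2 lay among the control libraries and the other 2 lay below them. The mean went from 35.3 ± 2.12 to 30.4 ± 4.33 CPM (SD, n = 3 each), for which edgeR fitted -0.21 (log2, SE 0.17, adjusted p 0.514). The level of p27 protein is largely set after transcription, which these data do not measure.

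Cdkn2c, the gene of p18 (ENSMUSG00000028551.14, chromosome 4, 109660876 to 109667189, minus strand), had 97, 137 and 100 counts for control and 76, 61 and 89 for fasted libraries 1, 2 and 3. These were 3.99, 3.85 and 2.51 times the library's own background in control and 1.97, 1.41 and 2.21 times in fasted libraries. Cdkn1c, the gene of p57, a protein known for holding stem cells at rest (ENSMUSG00000037664.13, chromosome 7, 143458339 to 143461050, minus strand), had 4, 8 and 8 counts for control and 7, 7 and 13 for fasted libraries 1, 2 and 3. Its highest rate, 0.480 CPM per kilobase, was below the background of that library, 1.13 CPM per kilobase, and it lay below background in all 6 libraries. No change is given for it.

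Rb1 (ENSMUSG00000022105.6, chromosome 14, 73183673 to 73325822, minus strand) had 12.4, 27.5 and 24.9 CPM in control libraries 1, 2 and 3 and 25.9, 27.9 and 25.0 CPM in fasted libraries 1, 2 and 3. Control library 1 was the lowest by far, and the other 5 libraries lay close together. edgeR fitted 0.28 on the log2 scale (SE 0.29, adjusted p 0.596), and without control library 1 it was 0.0037. At 5.13 times the background Rb1 lay just inside the limit, and of the other pathway genes E2f5, at 4.97 times, lay just outside. Against each library's own background it stood at 6.35, 8.14 and 5.50 times in control libraries 1, 2 and 3, but at 3.44, 4.50 and 3.69 times in fasted libraries 1, 2 and 3, all under the limit. Subtracting the background moved its log2 fold change to 0.15. Its exons share 488 bases with Rcbtb2 and 408 with Lpar6, a gene inside its span, both on the other strand.

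**Figure D2:**
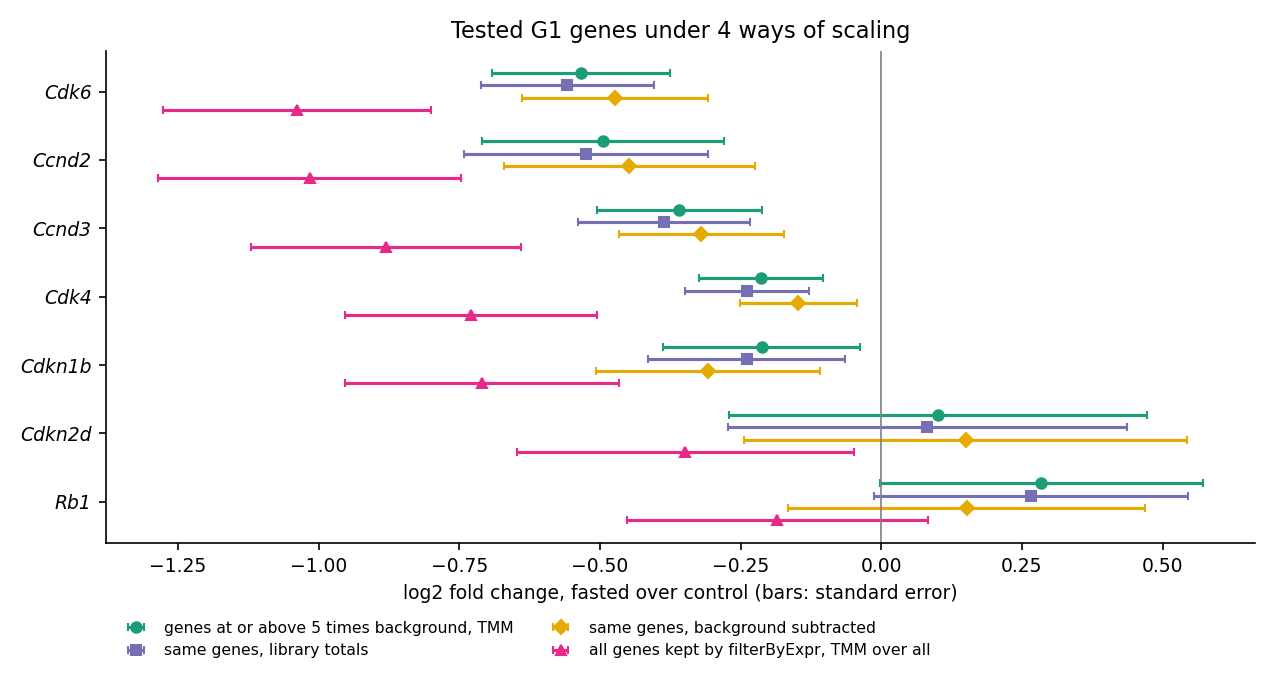
Log2 fold change of fasted over control libraries (horizontal axis) for the 7 tested G1 genes, with the standard error as bars, under 4 ways of scaling and filtering the same counts. Cdk6, Ccnd2, Ccnd3, Cdk4 and Cdkn1b stay below 0 in all 4, while Cdkn2d and Rb1 go below 0 with TMM over all genes kept by filterByExpr.

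With TMM over all 36508 genes kept by filterByExpr, which places the median gene above background at -0.50, 3 of 9 genes tested were called, all lower, against 4.97% of all genes called in that fit and 3.82% called lower. These were Cdk6 (-1.04, edgeR adjusted p 0.0333), Ccnd2 (-1.02, edgeR adjusted p 0.0414) and Ccnd3 (-0.88, edgeR adjusted p 0.0431). Taken against that median of -0.50, they lay lower by about the amounts given above. With no filter on low counts 4 of 10 were called, all lower, beside 5.38% of all genes, and with a limit of 2 times the background 3 of 9, all lower, beside 7.7%. Cdkn2d (-0.35) and Rb1 (-0.18) had the opposite sign from the fit above background.

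Ratios between genes of 1 library do not depend on the scaling between libraries, and 10 were set against each other between groups with two-sided exact permutation tests on the means. With 3 libraries a group, p cannot go below 0.1. The log2 ratio of Cdk6 to Cdk4 per kilobase was -0.71, -0.92 and -0.59 in the control libraries, against -0.85, -1.01 and -1.36 in fasted libraries 1, 2 and 3, so Cdk4 led in every library. The difference of -0.33 gave an exact p of 0.2 (adjusted 0.4), and without fasted library 3 it was -0.19. Ccnd3 to Ccnd2 was -0.90, -0.18 and -0.89 in the control libraries, against -0.54, -0.67 and -0.40 in fasted libraries, so Ccnd2 led in every library and the groups overlapped (difference 0.12, exact p 0.6, adjusted 0.667).

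The balance of cyclins and inhibitors against the kinases did not separate the groups. The sum of the 3 D cyclins over Cdk4 plus Cdk6, as a log2 ratio per kilobase, was -1.98 ± 0.219 in the control libraries, against -2.08 ± 0.183 in fasted libraries (SD, n = 3 each, exact p 0.6, adjusted 0.667). The sum of the 4 inhibitors over the same kinases was -2.67 ± 0.456 and -2.29 ± 0.502 (SD, n = 3 each, exact p 0.4, adjusted 0.667). Most of the inhibitor sum is Cdkn2d, with a control mean of 53.8 CPM per kilobase against 7.76 for Cdkn1b. Cdkn1c and Cdkn2c lay below the limit for testing. Cdkn1b to Cdkn2d was -2.73 ± 0.431 and -3.02 ± 0.544 (SD, n = 3 each, exact p 0.5, adjusted 0.667).

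Rb1 was also set against Rbl1 and Rbl2, the genes of the related pocket proteins p107 and p130. Rb1 to Rbl1 was -3.29, -2.00 and -1.97 in the control libraries, against -1.46, -1.34 and -1.79 in fasted libraries 1, 2 and 3, and the groups did not overlap. The difference of 0.89 had an exact p of 0.1 (adjusted 0.333), the lowest this design can give, and without control library 1 it was 0.45. Rb1 to Rbl2 differed by 0.50, with overlapping groups (exact p 0.2, adjusted 0.4), and by 0.10 without control library 1. Ccnd1 to Ccnd3 differed by 0.62 (exact p 0.1, adjusted 0.333), by 0.38 without control library 2, and by 0.28 with the background subtracted (exact p 0.7). Ccnd1 lies near the background, whose rate was 0.324 to 0.751 CPM per kilobase in control libraries and 1.03 to 1.25 in fasted ones. Cdkn1c to Cdkn1b was among the 10 ratios, but no value is read from it, since Cdkn1c lay below that background. Cdkn2c to Cdkn2d differed by 0.19 (exact p 0.9, adjusted 0.9).

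**Figure D3:**
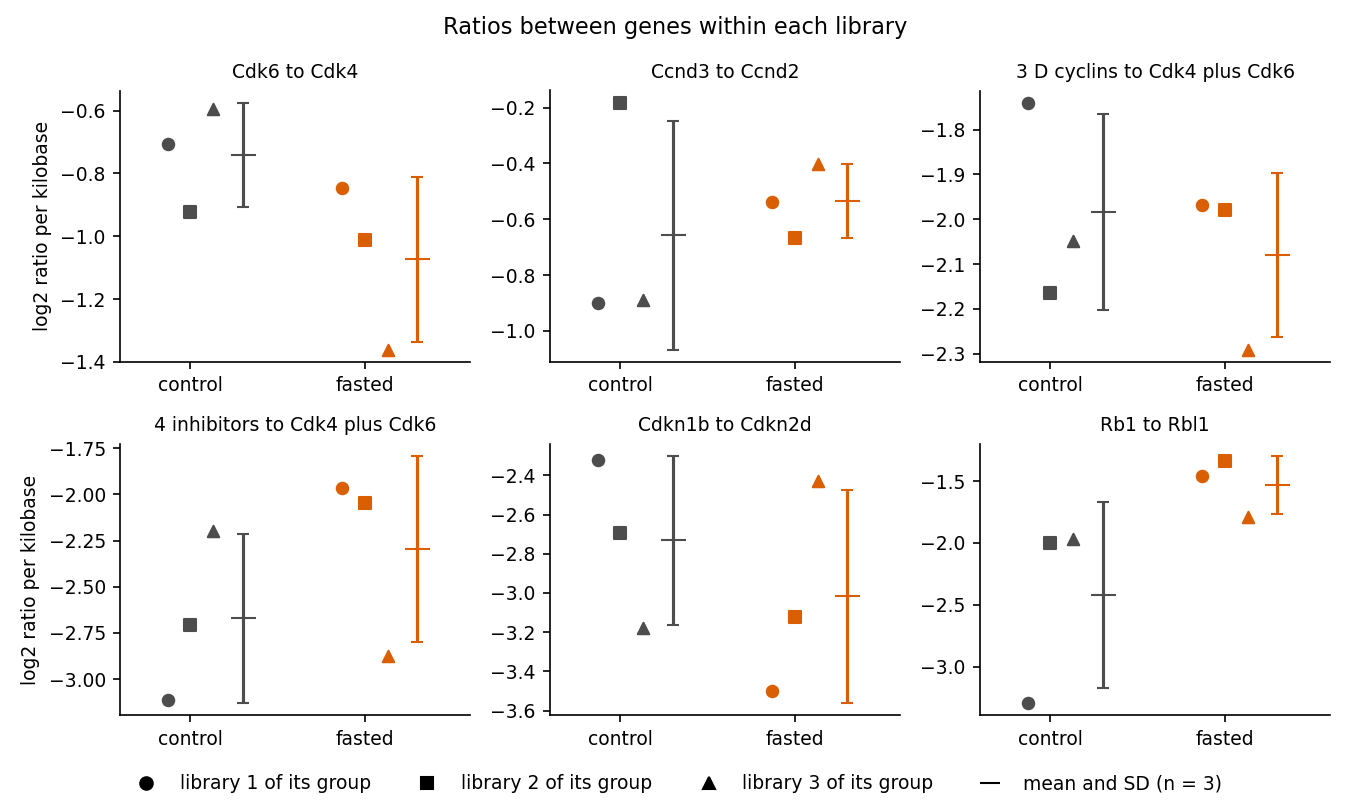
Log2 ratios per kilobase between G1 genes within each library (vertical axes, each ratio on its own scale), for 3 control (grey) and 3 fasted (orange) libraries, with the mean and SD of 3. The groups overlap in 5 of the 6 ratios drawn. Rb1 to Rbl1 is the exception, with all fasted libraries above all control libraries and control library 1 the lowest.

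Around these 10 genes, a list of 64 other genes of the G1 to S pathway was examined, of which 57 were above background. edgeR called 0 of 57 at an adjusted p under 0.05, with 17 at an unadjusted p under 0.05, 14 of them lower and 3 higher in fasted libraries, beside 8.31% lower and 11.5% higher among all tested genes. DESeq2 called 3 of the 57, Mcm3, Mcm6 and Rbl1, all lower, against its overall share of 4.64%. The median log2 fold change of the 57 was -0.13, beside 0.03 for all tested genes.

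Among the genes that E2F factors turn on for DNA synthesis, edgeR called 0 of 17 and 8 had an unadjusted p under 0.05, all lower, beside 8.31% of all tested genes. Of the 17 in the list, 17 had a log2 fold change below 0, beside 47.6% of all tested genes, and their median was -0.33. In 10 of the 17 every fasted library lay below every control library, beside 12.9% of all tested genes. In the same libraries the megakaryocyte marker sum was also lower without overlap, at 426 to 547 against 252 to 406 CPM, and the granulocyte and monocyte sum had means of 11591 and 3136 CPM with overlap, and the part of these cells was not tested. Mcm3, a subunit of the helicase that opens DNA for copying, had 753, 693 and 662 CPM for control and 514, 503 and 477 CPM for fasted libraries 1, 2 and 3, without overlap. edgeR fitted -0.50 for it (log2, SE 0.12, adjusted p 0.137, the smallest of the list). Mcm6, Mcm4 and Mcm5, of the same helicase, had -0.49, -0.43 and -0.39, Pola1, a DNA polymerase subunit, had -0.44, and Tyms, which makes thymidylate, had -0.43, with edgeR adjusted p from 0.145 to 0.172. The list was chosen with earlier results of these libraries known, so its direction is not independent evidence. With TMM over all genes Mcm3 was at -1.02 and passed (edgeR adjusted p 0.0325).

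Rbl1, itself read at the G1 to S border, had 121, 110 and 97.0 CPM in control and 71.1, 70.4 and 86.7 CPM in fasted libraries 1, 2 and 3, fitted by edgeR as -0.52 (log2, SE 0.15, adjusted p 0.151). All fasted libraries lay below all control libraries. Of the 10 tested genes of pocket proteins, E2F and DP factors, 0 were called, and 4 had an unadjusted p under 0.05, 2 in each direction, beside 19.9% of all tested genes. E2f2, an E2F gene known for its high level in erythroid cells, was one of the higher ones, with 13.7, 28.5 and 19.2 CPM in control and 28.9, 42.0 and 29.6 CPM in fasted libraries 1, 2 and 3. The lowest fasted library stood just above the highest control library, and edgeR fitted 0.71 (log2, SE 0.29, adjusted p 0.222). E2f2 stood at 6.99 times the background, whose rate was 0.324 to 0.751 CPM per kilobase in control libraries and 1.03 to 1.25 in fasted ones. Its own means were 4.20 CPM per kilobase in control and 6.87 in fasted libraries. The part of the background in this difference was not tested. E2f2 was singled out after its values were seen.

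Fbxw7, whose protein marks cyclin E for destruction, had 18.03, 25.7 and 24.7 CPM in control and 37.9, 32.6 and 36.2 CPM in fasted libraries 1, 2 and 3. All fasted libraries were above all control libraries, and edgeR fitted 0.64 (log2, SE 0.20, adjusted p 0.160). At 5.19 times the background Fbxw7 lay just inside the limit, and with TMM over all genes it was at 0.14. The 11 tested genes of cyclin and p27 turnover, Fbxw7 among them, lay on both sides, 5 above and 6 below 0, with a median of -0.05. The 8 genes of cyclin E and A, their kinases and activators had a median of -0.14, 5 of them below 0. The 6 genes listed for the DREAM and MuvB complexes were split 3 and 3. These splits hold for the scaling above background, since TMM over all genes sets the median gene above background at -0.50.

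Of the other inhibitors, Cdkn2a and Cdkn2b lay below the background, at 0.361 and 0.592 times its rate. Cdkn1a, the gene of p21, had 44.5, 113 and 288 CPM in control and 232, 286 and 56.6 CPM in fasted libraries 1, 2 and 3. Its spread within each group exceeded any difference between them (edgeR 0.37 on the log2 scale, SE 0.88, adjusted p 0.839). Foxo3, from a factor family known to act on Cdkn1b in starved cells, had -0.24 (SE 0.20, edgeR adjusted p 0.513), and Foxo1 and Foxo4 lay below the limit. Cdkn1a and Foxo3 were also singled out after their values were seen.

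**Figure D4:**
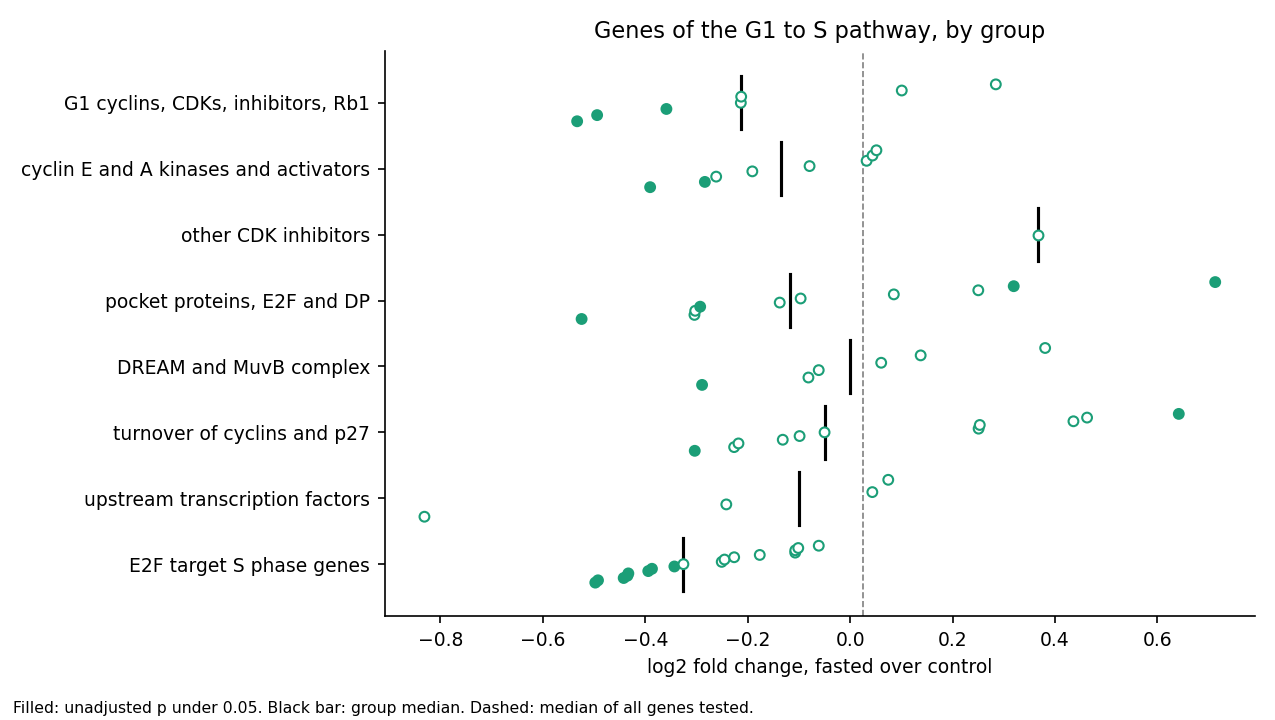
Log2 fold change of fasted over control libraries (horizontal axis) for tested genes of the G1 to S pathway, one point a gene, by group; filled points have an unadjusted p under 0.05, black bars are group medians and the dashed line is the median of all tested genes, 0.03. All 17 E2F target genes lie below 0, while every other group with more than 1 tested gene has genes on both sides of 0.

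For the most abundant gene of each role, the 3 tested genes with the most similar profile over the 6 libraries were listed as a description, by Pearson's r of log2 CPM. For Ccnd2 these were Pdp1 (0.992), Pitpnc1 (0.988) and Nras (0.983). For Cdk4 they were Zmat5 (0.991), Rabggta (0.988) and Nans (0.986), and for Cdkn2d they were Tmem71 (0.995), Malat1 (0.989) and Ddx50 (0.988). Each was picked as the highest of 10834 genes over only 6 libraries, which also share group and depth, so these values carry no test.

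The granulocyte and monocyte marker sum was high in 2 of the 3 control libraries, and the groups overlapped at 3635 to 18802 CPM for control against 1810 to 4533 CPM for fasted libraries, with 12 of 12 markers above background and none at 0. The megakaryocyte marker sum was 426 to 547 CPM for control and 252 to 406 CPM for fasted libraries, without overlap, with the erythroid sum at 4190 to 7223 and 5650 to 8603 CPM. The B cell sum was 73.3 to 134 and 108 to 249 CPM, with 5 of 8 markers above background, and Ebf1, Pax5 and Ms4a1 were not. The T cell sum was 12.8 to 17.8 CPM for control and 30.8 to 43.5 CPM for fasted libraries, without overlap. All 5 T cell markers lay below the limit. The background in CPM per kilobase was also higher in fasted libraries, and its part in this sum was not tested. The stem and multipotent progenitor sum was 593 to 813 and 397 to 759 CPM with 3 of 6 above background, and the mast cell and basophil sum 116 to 219 and 56.9 to 119 CPM with 4 of 5. The part of these cells in the values of the G1 genes and the other pathway genes was not tested.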

How the data were processed

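The deposited table holds raw counts per gene for 6 libraries and each gene's exonic length. The libraries were made from poly(A) RNA with random priming, per the labels' protocols. The authors used HISAT2 2.2.1 and featureCounts 2.0.1 on GRCm38, per the submitters' processing notes. Settings, annotation release and strand handling are not given in the sources used here. Of 55487 identifiers, 54349 matched GENCODE M21 with their version, all 54349 with the same exonic length, and M21 gave symbols and positions. Columns were matched to libraries by description.

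The 10 genes, the gene lists and the tests were chosen with earlier results of these data known. Genes whose mean count was at least 5 times the receptor gene rate times their length were scaled with TMM and tested with edgeR 4.0.16 (glmQLFit and glmQLFTest, robust, R 4.3.3) with group as the only term and Benjamini-Hochberg adjustment over 10834 genes. The edgeR steps were also run on simulated counts with the means, library sizes and common dispersion of the real fit. There they recovered 62 of 100 genes changed 2-fold and 99 of 100 changed 4-fold, and called 11 unchanged genes. Smaller changes, and the differences in dispersion between real genes, were not simulated, so these recoveries need not hold for the real fit. Ratios used counts per kilobase with 0.5 added, and exact permutation tests in scipy 1.17.1. Pathway genes named by rule were the 8 with the smallest p, since fewer than 8 passed. Depth ranged from 12797144 to 30246110 counts and was lower in the fasted libraries, so their counts carry more counting error. This concerns counting alone and not the spread between libraries. Alternatives were other scalings and filters, background subtraction, DESeq2 1.42.0, limma-voom 3.58.1, a replicate block and leaving out each library.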

Additional observations from a re-analysis of the deposited data

How the results depend on the processing

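edgeR called 0 genes, 0 of the G1 genes and 0 of the pathway genes above background. With TMM over all genes kept by filterByExpr it called 1813 of 36508 genes (4.97%), 3 of 9 G1 genes and 17 of 63 pathway genes. With the factors of the genes above background over that same wider set it called 5117 (14%), 1 and 5. With no filter on low counts it called 2849 of 52922 genes (5.38%), 4 of 10 and 23 of 64, and at 2 times the background 1719 of 22322 (7.7%), 3 of 9 and 14 of 61. DESeq2 called 503 genes (4.64%), 0 of 7 and 3 of 57, and a threshold of 0.1 gave 2, 0 and 0. Leaving out each library gave 0 to 3 genes (3 without control library 1 and 3 without control library 3) and 0 G1 or pathway genes. With a limit of 10 times the background, or with the background subtracted, edgeR called 0 genes. Scaling with RLE factors, upper quartile factors or library totals alone also gave 0 genes, as did limma-voom. Wider sets of genes include those near the background, and the cause of each change was not tested.

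Cdkn2d, 0.10 in the main comparison, was -0.35 with TMM over all genes, -0.38 with no filter, -0.22 at 2 times the background, and -0.13 to 0.42 without single libraries (-0.11 without control library 1, -0.13 without fasted library 1 and -0.03 without fasted library 2). Rb1 was -0.18, -0.22 and -0.055 under the first 3 of these settings. Under the same 3, Ccnd1 was -0.27, -0.30 and -0.11 and Cdkn2c was -0.25, -0.29 and -0.11, against 0.24 and 0.26 with the factors of the genes above background. Ccnd2, Ccnd3, Cdk4, Cdk6 and Cdkn1b stayed below 0 in every setting run.

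Without single libraries Ccnd3 to Ccnd2, 0.12, ranged from -1.0e-04 (without control library 1) to 0.36. Cdkn2c to Cdkn2d, 0.19, was -0.47 with background subtracted and -0.34 to 0.60 without single libraries (below 0 without control library 3 or fasted library 3). The 3 D cyclins to Cdk4 plus Cdk6, -0.10, was 0.0081 with raw counts and -0.19 to 0.026 without single libraries (above 0 without control library 1 or fasted library 3). Cdkn1b to Cdkn2d, -0.28, ranged from -0.58 to -0.04 and the 4 inhibitors to Cdk4 plus Cdk6, 0.38, from 0.16 to 0.67. Deviations of same-numbered libraries from their group means had r of -0.14, 0.12 and -0.25 across genes. With 3 libraries a group these deviations sum to 0, so the values cannot decide whether the replicate numbers pair the libraries. With the replicate number as a block 0 genes were called, and 1582 had an unadjusted p under 0.05.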
